A study of Ascaris suum with 9 samples.

Results

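A set of 129 genes, 0.718% of the 17974 in the count table, rose at least 2-fold in Ascaris suum larvae under each of 2 treatments, pure biochanin A and red clover extract. Ascaris suum is the large intestinal roundworm of pigs. The 9 RNA-seq libraries come from whole larvae and form 3 groups of 3: one received control solvent, one 100 µM biochanin A and one an extract of red clover at 200 µg/mL, and all exposures lasted 3 hours up to the isolation of RNA. The sources used here give no strain, larval stage or age of the worms, do not name the solvent, and do not say how much biochanin A the extract held. The labels number the libraries 1 to 3 within each group but do not state separate cultures or worms behind them. The p-values therefore reflect the spread among these 9 libraries alone, which may be technical.

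The 129 genes were chosen by their measured rise. Counts were converted to CPM (counts scaled to library size) with TMM factors, which adjust for differences in library composition. A gene was kept when its mean reached 5 CPM in at least 1 group, when log2((treated mean + 0.5)/(control mean + 0.5)) was at least 1 for both treatments, and when all 6 treated libraries lay above all 3 control libraries. The fold and CPM conditions alone returned 131 genes, and all 131 also met the condition on overlap. One of these had an identifier beginning AgE and 1 was among the 150 genes with the highest control CPM, and both were left out. Because the rise selected the genes, the rise itself is described below, and the calls of it against control are no independent test. The comparison of the 2 treated groups with each other was not a criterion, but it reads the same libraries.

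Biochanin A is an O-methylated isoflavone, a class of plant phenolics that red clover makes in quantity and that is known in mammals for weak oestrogen-like activity. Nematodes meet plant compounds in the gut of the host, and handle foreign compounds through oxidising and conjugating enzymes and efflux pumps. The table gives gene identifiers without gene or product names, and no annotation was used here. The 129 genes are therefore described by identifier, with no function assigned, and genomic positions were not analysed. RNA of whole larvae pools all tissues, so a change in RNA per cell and a change in the number of cells of a type cannot be told apart.

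Together the 129 genes took a larger share of the reads after either treatment. They held 0.735%, 0.707% and 0.719% of the counts in the control libraries, 2.17%, 2.17% and 2.18% with biochanin A, and 1.82%, 1.85% and 1.96% with extract. On the TMM scale their summed value was 6628 ± 55 CPM in the control group (mean ± SD, n = 3 in each group), 23147 ± 285 CPM after biochanin A and 19156 ± 154 CPM after extract. The 3 groups did not overlap in this sum, and extract lay between control and biochanin A in every library. Libraries held 44324212 to 53786882 counts, so 1 CPM stood for 41.3 to 51.6 reads after scaling. No control library had fewer than 22 counts for any of the 129 genes.

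The plot of all 129 genes by library shows that the 3 libraries of each treated group gave nearly the same distribution of rises. The median rise in mean CPM was 3.35-fold with biochanin A (range 2.05 to 13.5) and 2.69-fold with extract (range 2.05 to 8.01). A rise of at least 4-fold was reached by 40 genes with biochanin A, by 18 with extract and by 14 with both. Rises under 3-fold were seen for 52 genes with biochanin A and for 81 with extract. Rises under 3-fold thus made up most of the set with extract but not with biochanin A. The lower end of both ranges is fixed by the 2-fold limit of the rule.

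**Figure D1:**
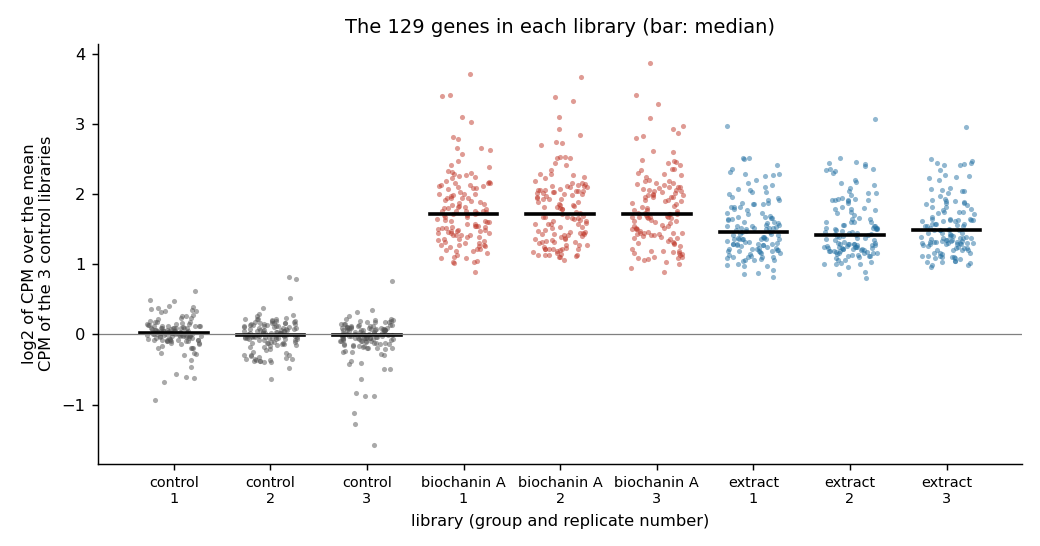
Each point is 1 of the 129 genes in 1 library, as log2 of its CPM over the mean CPM of the 3 control libraries, with a bar at the library's median. Control libraries scatter around 0, and all 6 treated libraries lie above them by the choice of the genes, biochanin A higher than extract at the median.

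The genes spanned a wide range of read counts. Mean control values ran from 1.26 to 449 CPM with a median of 19.0, against a median of 19.3 CPM over the 15177 genes tested. The tested genes include genes under 5 CPM in every group and the highest in control, both barred from the set, so the medians are of unlike sets. In control, 34 of the 129 were under 5 CPM, 75 between 5 and 100, and 20 above 100. Between libraries of one group the coefficient of variation had a median of 10.3% among controls, 5.55% after biochanin A and 6.46% after extract. Over the 10774 tested genes that reached 5 CPM in at least 1 group these medians were 8.41%, 6.62% and 7.22%. Gene lengths were not used here, so CPM values are not used to compare transcript levels between genes.

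The test was edgeR's quasi-likelihood one, from 1 model fitted to all 9 libraries, with Benjamini-Hochberg adjustment over all 15177 genes tested, and a gene was called at an adjusted p below 0.05. All 129 genes passed the filter on low counts. Against control, all 129 were called higher with biochanin A, where 16.9% of all tested genes were called higher, and all 129 with extract, where the share was 9.34%. Being called higher with both applied to 8.10% of all tested genes. These counts follow from the choice of the genes, and the 2 comparisons share the same 3 control libraries. For the 129 genes the fitted log2 fold changes had medians of 1.74 (biochanin A) and 1.43 (extract), against -0.02 and -0.01 over all tested genes. Library totals in place of TMM move the median over all tested genes to -0.22 and -0.16. The medians of the 129 then stand at 1.53 and 1.28. All 129 are called higher with each treatment there too, which again follows from their choice, but only 93 of them meet the rule on that scale.

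At the fold limit the set passes without a gap into genes outside it. The 3 genes just inside it had log2 values with extract of 1.001, 1.003 and 1.006 and with biochanin A of 1.32, 1.60 and 1.71. Of the 3 just outside, one had 0.998 with biochanin A and 1.04 with extract, and the others had 0.996 and 0.989 with extract and 1.83 and 1.15 with biochanin A. In all, 33 genes that met every other condition, these 3 included, had their lower log2 value between 0.9 and 1.

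The same genes were largely found when 1 library was withheld from the choice. A withheld library's own values did not select the genes, but the means they are set against did, so these shares are a description and not an independent check. With the CPM scaling kept, the rule without 1 library returned 128 to 135 genes, of which 117 to 129 were among the 129. When a biochanin A library was withheld, 95.4% to 98.5% of the genes chosen without it were at least 2-fold above the control mean in it. For a withheld extract library this share was 86.9% to 91.4%. When a control library was withheld, both treatment means were at least 2-fold above it for 79.3% to 83.2% of the genes. The shares were thus higher for withheld biochanin A libraries than for withheld extract libraries. A withheld control had to meet the condition with both treatments, which is stricter, so its share is not ranked with theirs.

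The largest rises belonged to 3 genes. AgR009X_g116 had the largest log2 fold change with both treatments. It stood at 3.69, 2.04 and 2.25 CPM in the control libraries, at 34.8, 33.8 and 38.9 CPM with biochanin A, and at 20.9, 22.3 and 20.7 CPM with extract. The first control library is above the other two, but every treated library is far above all 3, and the treated groups do not overlap. The mean rise was 13.5-fold with biochanin A and 8.01-fold with extract.

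AgB04_g289 ranked next with biochanin A. Its values were 57.9, 68.6 and 57.5 CPM in control, 655, 615 and 656 CPM with biochanin A, and 348, 303 and 335 CPM with extract. All 3 groups were separate, and the extract libraries lay about midway between the other groups on the CPM scale. AgR030_g031 ranked next with extract. It read 12.0, 10.2 and 10.9 CPM in control, 117, 115 and 108 CPM with biochanin A, and 58.8, 63.4 and 62.8 CPM with extract, a 10.3-fold and a 5.58-fold rise. The same order of groups, control below extract below biochanin A, held for these 3 genes without overlap.

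Ranked by the gain in reads, which also depends on gene length and so is no order of transcript levels, other genes came first. AgR001_g303 gained most with both treatments, from 452, 484 and 412 CPM in control to 1917, 1860 and 1904 CPM with biochanin A and 1637, 1544 and 1507 CPM with extract. Its rise of 4.21-fold and 3.48-fold stood near the upper quartiles of the set, 4.19-fold and 3.48-fold, and below the largest rises. AgR006_g091 gained second most with biochanin A. It went from 279, 274 and 273 CPM in control to 1199, 1232 and 1249 CPM with biochanin A, and to 807, 894 and 875 CPM with extract. AgB10_g124 gained second most with extract, from 406, 417 and 381 CPM in control to 1251, 1133 and 1188 CPM, and reached 1321, 1293 and 1317 CPM with biochanin A. For AgB10_g124 the treated groups lay close together, with every biochanin A library above every extract library.

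At the other end, AgR005_g199 and AgR029_g019 had the smallest sum of the 2 log2 rises. AgR005_g199 read 59.4, 51.1 and 62.6 CPM in control, 117, 124 and 123 CPM with biochanin A, and 114, 116 and 125 CPM with extract. AgR029_g019 read 132, 132 and 121 CPM in control, 262, 281 and 257 CPM with biochanin A, and 271, 262 and 278 CPM with extract. In both genes the treated groups overlap each other and are clear of the controls. Their rises of 2.10-fold and 2.05-fold, and of 2.08-fold and 2.11-fold, are the weakest that the set holds by this measure.

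**Figure D2:**
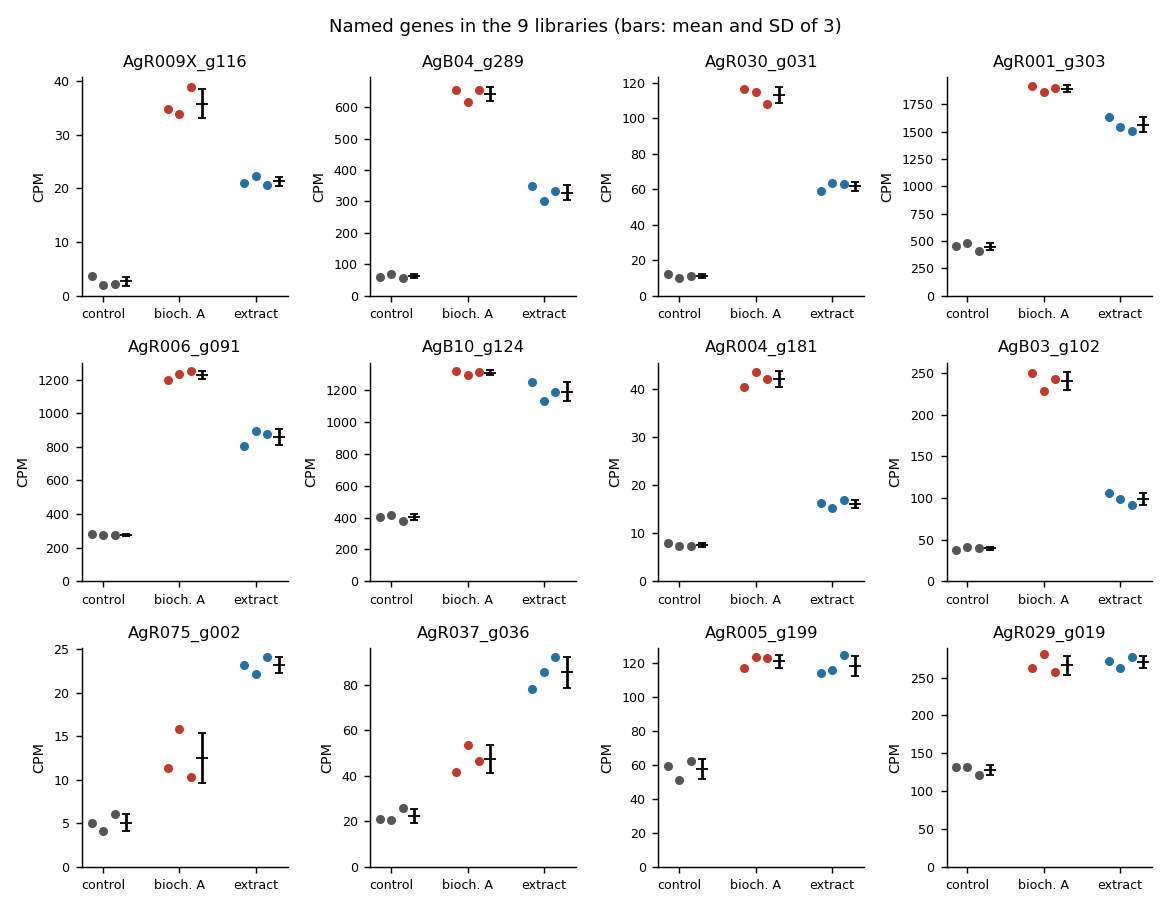
CPM of the 12 genes chosen by the naming rule, 1 point per library, with the mean and SD of each group of 3 beside the points and axes from 0. Extract lies between control and biochanin A for the first 8 genes, above biochanin A for AgR075_g002 and AgR037_g036, and level with it for AgR005_g199 and AgR029_g019.

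The direct comparison of extract with biochanin A asked whether the shared genes responded equally at the doses used. The doses are not matched in amount of biochanin A, so a difference is one between these 2 exposures. The mean was lower with extract for 103 of the 129 genes and higher for 26. All 3 extract libraries lay below all 3 biochanin A libraries for 75 genes, or 58.1%, against 17.8% of all tested genes. The opposite separation held for 12, or 9.30%, against 17.2%. The treated groups overlapped for the other 42.

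The test called 49 of the 129 genes lower with extract than with biochanin A, 38.0% of the set, where 7.39% of all tested genes were called lower. It called 6 higher with extract, 4.65% of the set against 7.37% of all tested genes. The shares over all tested genes, here and for the separations above, are taken over 15177 genes, most of them not called higher with either treatment. How the genes behind these shares divide by their calls against control was not counted. How much of the excess over 7.39% comes from choosing raised genes was not tested. The median log2 difference over the 129 was -0.22, against 0.00 over all tested genes, and the range was -1.38 to 0.89. Among the 49 genes called lower the median difference was -0.51, with a range of -1.38 to -0.19. Library totals in place of TMM gave 38 lower and 8 higher, with a median of -0.16 over the 129 and 0.06 over all tested genes.

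The difference can also be read as the gain in CPM over control. Over the 129 genes the gain with extract was a median of 77.6% of that with biochanin A, with quartiles of 61.7% and 98.0%. It was under 50% for 16 genes and over 100% for 26. For the 49 genes called lower it ran from 24.9% to 83.0% and for the 6 called higher from 132% to 253%. That the first lie under 100% and the second over it follows from the calls, and that every gene rose with extract follows from the rule.

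**Figure D3:**
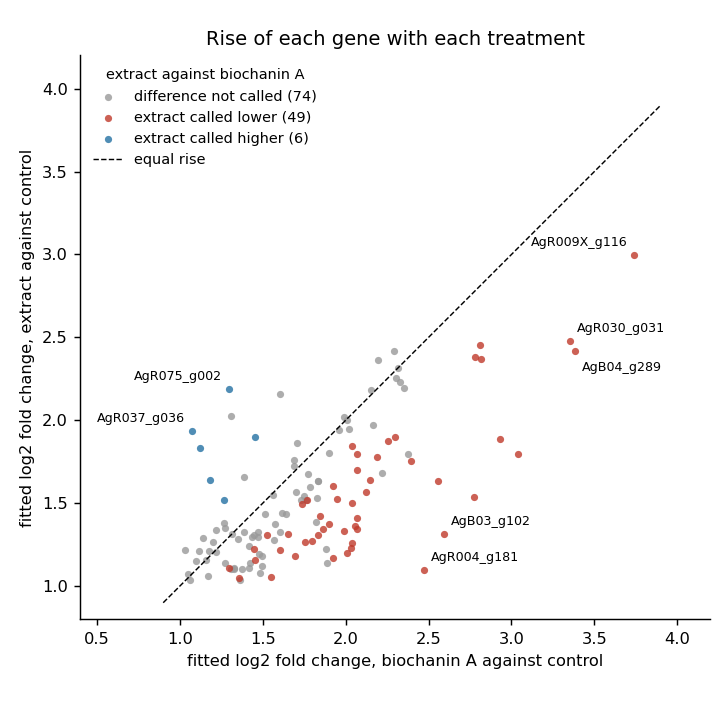
Fitted log2 fold change of each of the 129 genes against control, biochanin A on the x axis and extract on the y axis, coloured by the test of extract against biochanin A; the dashed line marks equal rises. Most points lie below the line, 49 called lower with extract, and 6 called higher lie above it; both axes share the same control libraries and both were used to choose the genes.

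AgR004_g181 and AgB03_g102 had the lowest log2 differences of extract against biochanin A among the genes called. AgR004_g181 read 8.08, 7.32 and 7.26 CPM in control, 40.5, 43.7 and 42.2 CPM with biochanin A, and 16.4, 15.3 and 16.8 CPM with extract. The extract libraries are just over 2-fold above control, while biochanin A gave a rise of 5.58-fold. The log2 difference between the treatments was -1.38 ± 0.11 (SE), with an adjusted p of 1.7e-07. AgB03_g102 read 37.9, 41.7 and 39.6 CPM in control, 250.4, 228 and 243 CPM with biochanin A, and 106, 98.8 and 91.4 CPM with extract. Its difference was -1.28 ± 0.07 with an adjusted p of 1.7e-09.

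The genes with the largest rises were called different between the treatments as well. AgB04_g289 and AgR006_g091 were named for biochanin A alone, a choice that in itself favours a negative difference. AgR030_g031 and AgB10_g124 were named for extract alone, which favours the opposite. The log2 difference was -0.74 ± 0.15 for AgR009X_g116 (adjusted p = 0.0029), -0.96 ± 0.07 for AgB04_g289 (6.3e-08) and -0.87 ± 0.08 for AgR030_g031 (4.8e-07). Among the genes that gained most reads, AgR006_g091 differed by -0.51 ± 0.06 (adjusted p = 7.7e-06) and AgR001_g303 by -0.27 ± 0.06 (adjusted p = 0.0068). For AgB10_g124 the difference of -0.13 ± 0.06 was not called, with an adjusted p of 0.14 and a 95% interval of -0.26 to -0.01 before adjustment. Its extract libraries were all below its biochanin A libraries, so the call and the separation of the libraries part ways here.

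AgR075_g002 and AgR037_g036 had the largest differences in favour of extract. AgR075_g002 read 4.996, 4.12 and 6.08 CPM in control, 11.3, 15.8 and 10.4 CPM with biochanin A, and 23.3, 22.2 and 24.1 CPM with extract. Its biochanin A libraries varied most among themselves, but none reached an extract library. The log2 difference was 0.89 ± 0.17 with an adjusted p of 0.0016. AgR037_g036 read 20.9, 20.5 and 25.7 CPM in control, 41.5, 53.8 and 46.6 CPM with biochanin A, and 78.5, 85.9 and 92.4 CPM with extract. The 3 groups did not overlap, and the difference was 0.86 ± 0.11 with an adjusted p of 2.2e-05.

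For 74 of the 129 genes no difference between the treatments was called, which does not show that the treatments act alike on them. The estimate was negative for 54 of the 74, and the median estimate was -0.12. The 95% interval of the log2 difference, before adjustment, lay within a 2-fold difference in either direction for 69 of these genes and within 1.5-fold for 51. For the other 5 it reached past 2-fold. The half-width of the interval ran from 0.12 to 0.77, so precision varied widely within the 74. The genes not called had a median control value of 11.0 CPM, against 28.2 CPM for the 49 called lower and 36.1 CPM for the 6 called higher. Fewer reads go with wider intervals, and how much of the split between called and not called comes from depth was not tested. The intervals were tight for both weakest risers: the difference was -0.03 for AgR005_g199 (95% interval -0.18 to 0.13) and 0.02 for AgR029_g019 (-0.10 to 0.15).

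**Figure D4:**
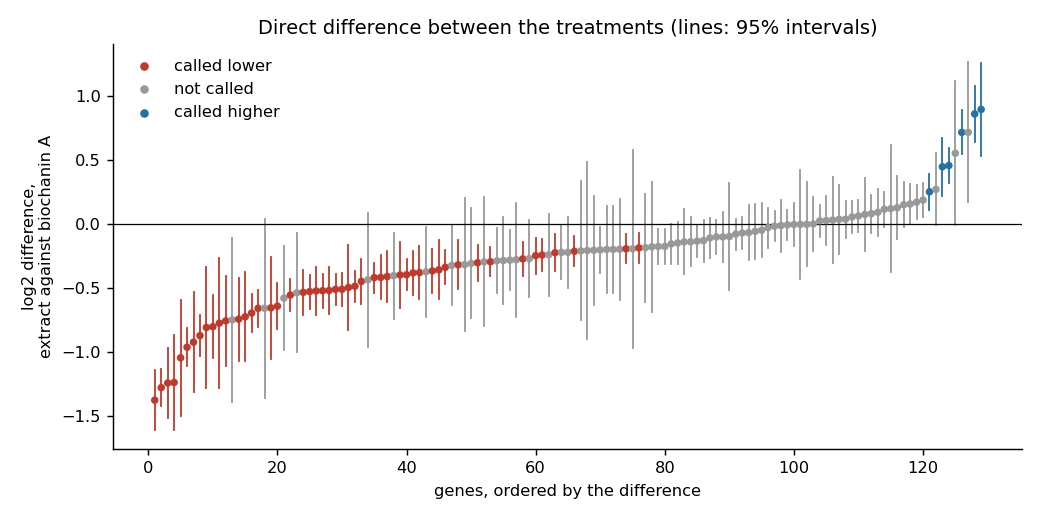
Log2 difference of extract against biochanin A for the 129 genes in order, with 95% intervals before adjustment for multiple tests. Differences run from -1.38 to 0.89, and the genes called lower with extract fill most of the left side.

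Some of the genes carry consecutive identifiers, numbers that follow each other on the same stem, a feature that the rule did not use. The set comprises 81 single genes, 15 runs of 2 and 6 runs of 3, so 48 genes, or 37.2%, stand in runs of 2 or more. Of the 219 tested genes next to one of the set by identifier, these 48 belong to the set themselves, or 21.9%, while the set makes up 0.850% of all tested genes. The sources used here do not say what the order of identifiers means for the position in the genome. Strand is not stated either, nor is how reads of overlapping genes, or of near-identical copies, were assigned.

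Within runs some pairs moved as one and others did not. AgB15X_g047 and AgB15X_g048, singled out after their values were seen, have identical counts in all 9 libraries, so the table does not distinguish them. Their shared values were 4.94, 3.42 and 4.78 CPM in control, 14.2, 15.4 and 17.4 CPM with biochanin A, and 14.5, 13.3 and 13.0 CPM with extract. Only 12 of the 17006 consecutive pairs whose first gene has a count are identical in this way, and for 4 of them the mean count is at least 10. Of the 27 consecutive pairs among the 129 genes, the ratio of the 2 counts varied by less than 1.5-fold over the 9 libraries in 14, or 51.9%, the identical pair included. Among all 11981 consecutive pairs of tested genes with counts in every library this share was 23.4%, and it was 35.2% among the 7871 pairs in which both mean counts were at least the lowest of the 129. Both genes of each pair among the 129 were chosen to rise with both treatments, which in itself favours a steady ratio. The other pairs were not so chosen, and their depth was matched only by that lower bound. Whether pairs with a steady ratio share reads was not tested.

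The run that begins with AgR009X_g116 held genes with unlike responses. AgR009X_g117 read 1.501, 1.86 and 1.39 CPM in control, 7.40, 7.64 and 8.78 CPM with biochanin A, and 9.04, 8.07 and 6.59 CPM with extract. AgR009X_g118 read 108, 108 and 103 CPM in control, 399, 406 and 439.7 CPM with biochanin A, and 414, 405 and 407 CPM with extract. Both showed level treated groups, with log2 differences of 0.00 ± 0.20 and -0.02 ± 0.06, while AgR009X_g116 was lower with extract. The count ratio of AgR009X_g116 to AgR009X_g117 ranged from 1.10 to 4.70 over the libraries, so their counts did not move in proportion.

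The run AgR006_g090 to AgR006_g092 also differed within itself. AgR006_g091 rose 4.46-fold with biochanin A and 3.12-fold with extract. AgR006_g090 rose 2.46-fold and 2.16-fold, from 125, 134 and 122 CPM in control. AgR006_g092 is the member with the fewest control reads, at 22 to 111 counts per library. It read 1.15, 2.22 and 0.426 CPM in control, 5.76, 5.47 and 5.84 CPM with biochanin A, and 6.16, 3.63 and 5.10 CPM with extract. In proportion to their mean, its control values vary more among themselves than its treated values, and the rises of 4.50-fold and 3.92-fold carry log2 standard errors of 0.39 each.

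In 2 other runs the partners had like estimates. AgR075_g003, next to AgR075_g002, read 1.56, 1.12 and 1.55 CPM in control, 3.70, 3.18 and 3.66 CPM with biochanin A, and 4.50, 5.98 and 6.79 CPM with extract. Like its neighbour it was highest with extract in all libraries, but the difference of 0.72 ± 0.26 was not called (adjusted p = 0.074). AgR029_g018, next to AgR029_g019, rose 2.33-fold and 2.31-fold and did not differ detectably between the treatments (-0.01 ± 0.06, adjusted p = 0.96). These 6 companions of named genes were picked for their identifiers and after their values were seen.

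**Figure D5:**
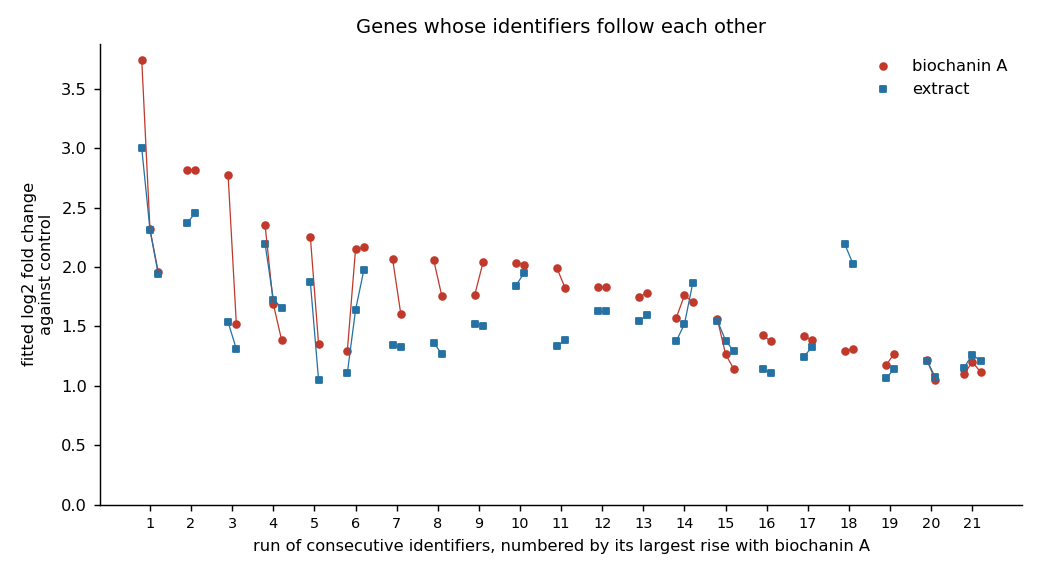
Fitted log2 fold changes against control for the 48 genes in the 21 runs of 2 or 3 consecutive identifiers, circles for biochanin A and squares for extract, with lines joining neighbours. Some runs are level, and others step by over 1 on the log2 scale between neighbours, as in the first run, which begins with AgR009X_g116.

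Genes directly next to the set by identifier, but not in it, were not selected on their own rise, except that none of them met the rule. There were 199 of them, of which 171 were tested and 28 did not pass the filter. With biochanin A, 52 of the 171, or 30.4%, were called higher, against the 16.9% of all tested genes, and 20, or 11.7%, were called lower, against 18.3%. With extract, 36, or 21.1%, were called higher, against 9.34%, and 11, or 6.43%, lower, against 8.0%. Both treatments raised 31 of them, or 18.1%, against 8.10%. Over the 171, the log2 fold changes had medians of 0.16 (biochanin A) and 0.14 (extract).

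Most neighbours of the set were thus not called higher. In the direct comparison 15, or 8.77%, were called lower with extract than with biochanin A, and 13, or 7.60%, higher. These shares are near those of all tested genes. The set was chosen to rise and the neighbours were not, so their shares are not set against those of the set. Why the neighbours' shares are near those of all tested genes was not tested. The neighbours' median log2 difference was -0.02. The part of shared or misassigned reads in the neighbours' values was not tested.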

How the data were processed

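Whole Ascaris suum larvae were profiled by RNA-seq in 9 libraries, 3 per group. The authors deposited raw counts per gene with no normalization, and the sheet name points to the WBPS19 annotation of the species; per the submitters' processing notes DESeq2 was used, in a role not given. The sources used here name no aligner, counting tool or strandedness. Columns were matched through library names in the sample descriptions.

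CPM values used TMM factors over all 17974 genes. For tests, filterByExpr kept 15177 genes; edgeR 4.0.16 (R 4.3.3) fitted 1 robust quasi-likelihood model to all 9 libraries, with no block (6 residual degrees of freedom). A standard error is the log2 fold change divided by the square root of F. Intervals are 95% and cover the spread between libraries. The workflow was run on simulated counts with the same spread setting for all genes and equal rises with both treatments. That run held no difference between the treatments, so it does not show how well such differences are found. Alternatives were DESeq2 1.42.0, limma 3.58.1 voom, other scalings, filters and thresholds, a replicate block, and each library left out.

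The 129 genes and all lists were chosen with earlier results of these data known. Named genes are at most 2 per list: largest log2 fold change and largest CPM gain with each treatment, largest called difference in each direction between treatments, and smallest summed rise. Lists by product name were not used, since the identifiers carry no names here.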

Additional observations from a re-analysis of the deposited data

How the results depend on the processing

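The set held 93 genes with library totals, 130 with DESeq2 size factors, 139 and 104 with pseudocounts of 0.1 and 2, 159 and 112 with minimum values of 1 and 10 CPM, and 128 with identical pairs counted once; the 93, 104 and 112 are all among the 129. Leaving out 1 library and rescaling gave 128 to 135. The numbers called higher against control, which follow from the choice of the genes, were 129 with biochanin A in every alternative and 127 to 129 with extract. For extract against biochanin A, 35 to 55 genes were called lower over all alternatives, 36 to 52 when 1 library was left out and 43 with 1 gene per run, a choice made after seeing the data. The 6 called higher became 10 in a fit of only the 2 treated groups, which has fewer libraries and its own estimate of spread, and 5 to 8 when 1 library was left out. Same-numbered libraries showed no pairing (correlations of deviations -0.02 to 0.02), and a replicate block gave 50 lower and 7 higher. All 612 entries for the 12 named genes in the alternatives kept their direction where called and their side of the threshold. Those at the threshold of 0.01 reuse the main fit, so their direction could not change. Changes against control chose the genes, and 10 of the 12 were picked for large changes or large differences. Depth limits genes of few reads most.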

Other observations

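Identifiers of the form AgR without an X after the number made up 83 of the 129 genes, or 64.3%, against 53.0% of the tested genes outside the AgE class. Those of the form AgB without an X made up 26, or 20.2%, against 27.9%. The AgR and AgB forms with an X made up 15 and 5 genes, or 11.6% and 3.88%, against 13.9% and 5.24%. This was read after the data were seen and was not tested, and the sources used here do not explain the letters. Genes in runs enter these counts one by one.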
